A study of Mus musculus with 82 samples.

Results

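S100a4, S100a6, S100a10, S100a11, Anxa1, Anxa2, Crip1 and Lgals1 are genes that memory and effector T cells are known to express more strongly than naive T cells, and their levels were compared between inbred mouse strains in sorted naive CD4 T cells. The 8 genes were chosen by symbol, and a gene with several probe sets was represented by the one with the largest mean, so that 8 of the 24922 probe sets of the array represent them. In all, 9 probe sets carry these symbols, because S100a11 has 2. The question was whether the genes vary together across strains or 1 at a time.

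The cells came from spleens of male mice and carried CD3, CD4 and CD62L, while cells with CD8, CD11c, CD25, CD49b, Gr1 or Ter119 were among those excluded. The labels give an age of 6 weeks and the series text 5 weeks, and the series text describes each sample as a pool of a few mice. CD44, the usual marker of memory T cells, is not among the sorted markers, and no treatment is labelled. There were 82 arrays in 40 strain groups, with 2 arrays in each of 38 groups, 5 arrays for C57BL/6J and 1 for SWR/J.

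Of the 40 groups, 4 belong to strains that descend wholly or mainly from house mouse subspecies other than Mus musculus domesticus, and these are JF1/Ms, MSM/Ms, PWD/PHJ and CAST/EiJ. The other 36 are 129S1/SvImJ, A/J, AKR/J, BALB/cByJ, BPL/1J, BTBR T+ tf/J, C3H/HeJ, C57BL/10J, C57BL/6J, C57BLKS/J, C57L/J, CBA/CaJ, CBA/J, CE/J, DDY/JclSidSeyFrkJ, FVB/NJ, KK.Cg-Ay/J, LGJ, LP/J, MA/MyJ, MRL/MpJ, NOD/ShiLtJ, NON/ShiLtJ, NOR/LtJ, NZB/BINJ, NZW/LacJ, P/J, PL/J, RIIIS/J, SEA/GnJ, SJL/J, SM/J, SWR/J, WSB/EiJ and groups titled C57BR and DBA2. The C57BR-titled arrays carry the background label CBA/CaJ and the DBA2-titled arrays DBA/1LacJ, so both were kept under their titles.

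S100 proteins are small calcium-binding proteins that work as dimers, and several of them bind annexins, which attach to membranes when calcium rises. S100a10 forms a complex with annexin A2, the product of Anxa2, and S100a11 binds annexin A1, the product of Anxa1. Crip1 encodes a small protein with a LIM domain, and Lgals1 encodes galectin-1, a sugar-binding protein that can be secreted. Differentiated T cells are known to raise these transcripts together with genes for the cytoskeleton and for migration.

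Values are linear array intensities, a strain value is the geometric mean of its arrays, and differences are on the log2 scale. Array medians lay between 102.1 and 141.8, and the median of all values was 113.1. The T cell list (Cd3e, Cd3d, Cd3g, Cd4, Cd5, Cd28 and Trat1) averaged between 2550.1 and 3817.3 on every array. Markers of other cells stood out on PL/J replicate 2, where the B cell list averaged 340.7, against a median of 48.8 over all arrays, and the neutrophil list 184.3, against a median of 53.2. They were also high on A/J replicate 2, with 144.5 for the B cell list, 148.2 for the plasma cell list (median 95.8) and 223.4 for the erythroid list (median 87.5). In such bulk samples, fewer cells of a type and less RNA per cell cannot be told apart.

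The promoters of 5 genes whose strain differences are described at length below are shown. S100a4, S100a6 and Anxa2 were highest in CE/J, S100a11 was lowest in NOD/ShiLtJ and NOR/LtJ, and Crip1 had the widest range. Whether these promoters differ between strains was not tested. Each sequence is the 250 bases before the start site in the C57BL/6J reference (RefSeq, GRCm38.p6), written 5′ to 3′ on the gene's strand. The windows are chr3:90603520-90603769 (plus strand) for S100a4, chr3:90612644-90612893 (plus) for S100a6, chr9:69453433-69453682 (plus) for Anxa2, chr3:93520246-93520495 (plus) for S100a11 and chr12:113151762-113152011 (plus) for Crip1. Capitals mark matches, on either strand, to the TATA box letters TATAAA, the CCAAT box letters CCAAT, the AP-1 letters TGANTCA, the Sp1 letters GGGCGG and the Klf letters CACCC.
S100a4: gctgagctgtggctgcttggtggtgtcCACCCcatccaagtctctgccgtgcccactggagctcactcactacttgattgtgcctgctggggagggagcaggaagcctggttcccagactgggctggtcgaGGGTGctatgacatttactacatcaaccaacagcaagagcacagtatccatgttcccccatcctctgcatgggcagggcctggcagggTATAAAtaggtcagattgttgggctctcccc
S100a6: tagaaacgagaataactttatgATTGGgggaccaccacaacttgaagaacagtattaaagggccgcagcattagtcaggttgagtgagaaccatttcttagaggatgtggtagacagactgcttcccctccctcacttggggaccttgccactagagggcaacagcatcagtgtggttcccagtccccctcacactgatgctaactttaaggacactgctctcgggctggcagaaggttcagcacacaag
Anxa2: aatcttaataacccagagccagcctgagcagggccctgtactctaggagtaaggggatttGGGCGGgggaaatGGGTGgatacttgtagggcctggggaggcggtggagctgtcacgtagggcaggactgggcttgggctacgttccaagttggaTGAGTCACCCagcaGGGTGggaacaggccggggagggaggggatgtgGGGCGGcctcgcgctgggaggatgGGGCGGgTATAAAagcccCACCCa
S100a11: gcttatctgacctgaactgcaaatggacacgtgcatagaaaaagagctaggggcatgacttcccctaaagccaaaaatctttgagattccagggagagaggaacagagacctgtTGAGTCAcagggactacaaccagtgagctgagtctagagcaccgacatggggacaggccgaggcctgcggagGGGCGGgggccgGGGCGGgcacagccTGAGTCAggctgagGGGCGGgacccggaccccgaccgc
Crip1: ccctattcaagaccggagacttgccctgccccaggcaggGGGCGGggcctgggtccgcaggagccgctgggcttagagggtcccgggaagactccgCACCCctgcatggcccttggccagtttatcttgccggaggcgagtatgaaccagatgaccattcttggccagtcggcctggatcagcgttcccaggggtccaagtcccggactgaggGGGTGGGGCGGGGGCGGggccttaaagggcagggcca

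Of the 8 genes, 6 had a promoter window in the reference used, the remaining window being that of Anxa1. S100a10 and Lgals1 had none. The AP-1 letters occurred in S100a11, with first bases at -136 and -38 from the start site, and in Anxa2 at -95, where they overlap a CACCC match. These letters occur in 6.75% of the 32851 mouse promoter windows of the same length. TATAAA was found in S100a4 at -31, in Anxa1 at -32 and in Anxa2 at -17, against 12.4% of all windows. GGGCGG had 3 matches each in S100a11, Anxa2 and Crip1 (32.7% of windows hold it), CACCC was in S100a4, Anxa2 and Crip1 (52.0%), and CCAAT in S100a6 at -228 (33.8%). S100a4 and Anxa2 thus shared TATAAA and CACCC, and S100a6 had no searched motif in common with them. A match describes these letters in the reference strain and is not evidence of a bound site.

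The 8 genes fell into distinct levels. The median strain intensity was 4007 for Crip1, 3344 for S100a10, 2091 for S100a11 and 1542 for Lgals1, and these 4 lay above the array median on all 82 arrays. Anxa2 (113.3) sat near it and exceeded it on 44 of 82 arrays. S100a4 (56.6), S100a6 (49.0) and Anxa1 (19.2) lay below it on every array, except for S100a4 on 1. Intensities of different probe sets depend on their probes, so these levels place each gene within its arrays and do not rank the transcripts.

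**Figure D1:**
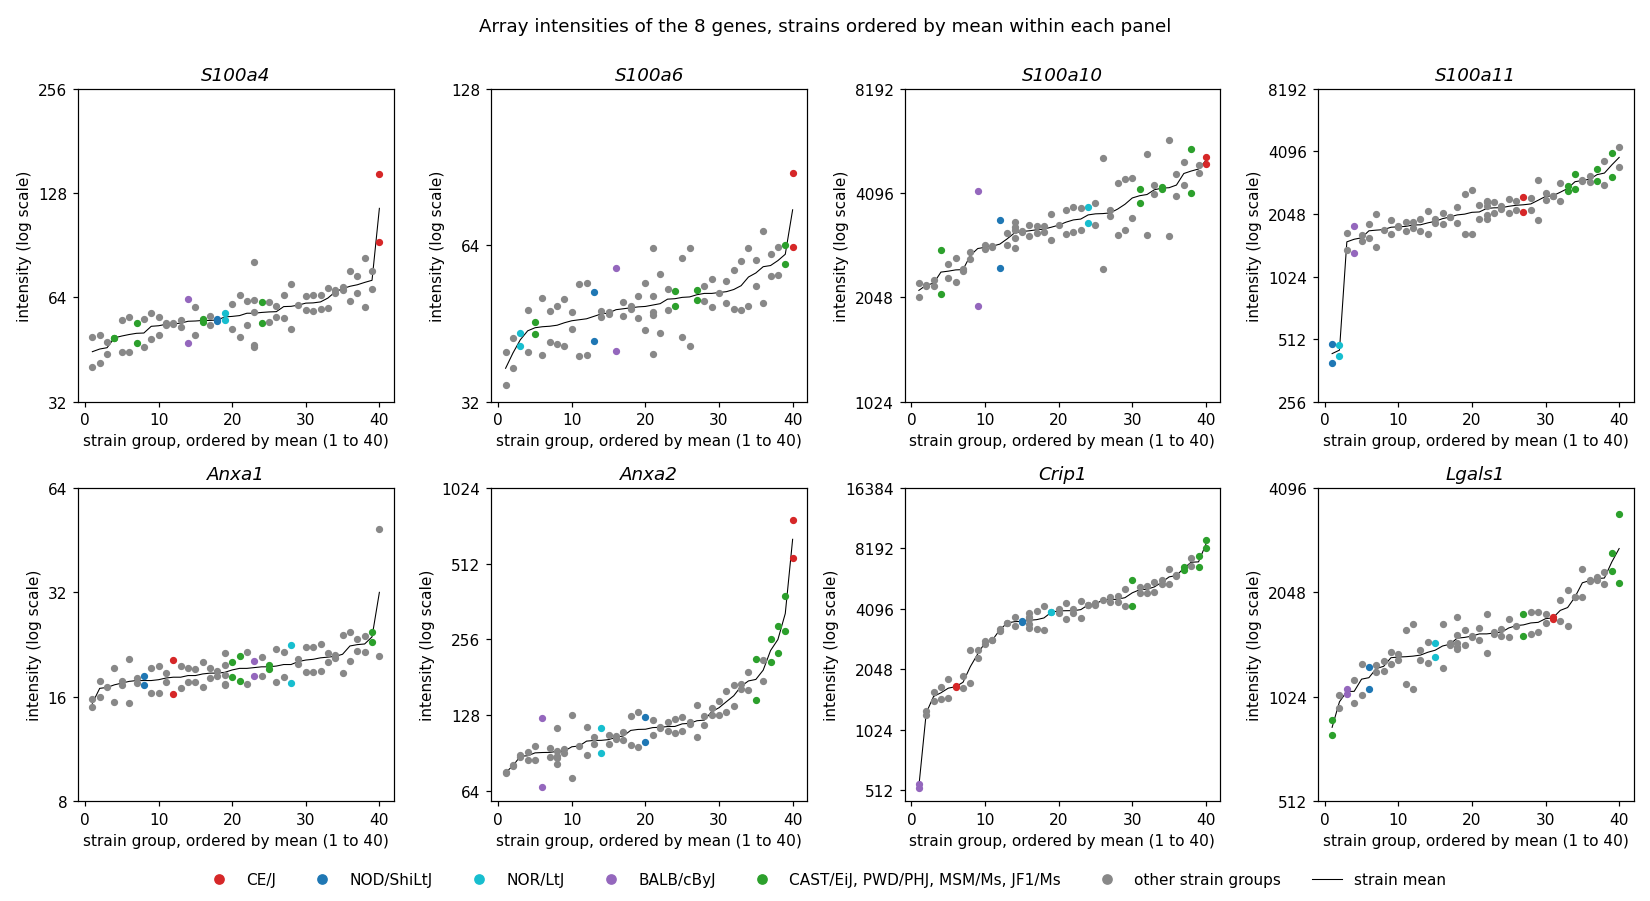
Intensity of each gene on each of the 82 arrays (log axis), with the 40 strain groups in order of their mean along the horizontal axis and a line through the strain means. CE/J stands at the top for S100a4, S100a6, S100a10 and Anxa2, NOD/ShiLtJ and NOR/LtJ lie far below all other groups for S100a11, and BALB/cByJ does so for Crip1.

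Strain means differed by the limma F-test across the 40 groups for 6 of the 8 genes, at an adjusted p below 0.05. This compares with 47.6% of all 24922 probe sets and 72.6% of the 14512 brighter ones, those exceeding 113.1 in at least 1 strain. The 6 of 8 is near the share for the brighter probe sets. Crip1 had the largest strain range among the 8, 16.1-fold (adjusted p = 6.68e-30), followed by S100a11 with 8.8-fold (7.12e-18) and Anxa2 with 8.46-fold (7.02e-16). Lgals1 spanned 3.28-fold (5.99e-12), S100a4 2.6-fold (0.000438) and S100a10 2.37-fold (7.84e-05). S100a6 spanned 2.02-fold (0.0976) and Anxa1 2.09-fold (0.0968), and neither passed the test. Over all probe sets the median range was 1.56-fold, over the brighter ones 1.68-fold, and over the 8 genes 2.92-fold.

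The share of the array-to-array variance that lay between strains (intraclass correlation) was 0.972 for Crip1, 0.894 for S100a11, 0.867 for Anxa2 and 0.809 for Lgals1. It was 0.516 for S100a10, 0.477 for S100a4, 0.203 for Anxa1 and 0.198 for S100a6. The median was 0.262 over all probe sets and 0.452 over the brighter ones. For S100a6 and Anxa1, the spread between arrays of 1 strain was about as large as the spread between strains. S100a6 had a replicate SD of 0.208 on the log2 scale beside an SD of strain means of 0.181, and Anxa1 0.199 beside 0.175. For S100a10 these were 0.259 and 0.326.

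Most neighbouring strains in the order of each gene did not differ beyond their error. Of 39 gaps between neighbours, those larger than 2 standard errors numbered 3 for Crip1 and 1 each for S100a4, S100a11, Anxa1 and Anxa2, and there were 0 for S100a6, S100a10 and Lgals1. The largest gaps were those below NOR/LtJ's next neighbour CBA/J for S100a11 (1.73), above BALB/cByJ for Crip1 (1.22) and below CE/J for Anxa2 (0.981). By these gaps, NOD/ShiLtJ and NOR/LtJ stood apart for S100a11, CE/J for Anxa2 and BALB/cByJ for Crip1. Gaps between ordered neighbours stay small in a graded series, so they do not count the strains that differ. For Crip1, 14 strains were called higher and 10 lower than the mean of the others.

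When each strain was compared with the mean of the other 39, 67 of 320 pairs of a gene and a strain passed the limma test, 42 of them higher and 25 lower. Over all probe sets and the same 40 comparisons, 3.25% were called higher and 3.14% lower, and the median strain had 2.09% and 1.99%. Crip1 accounted for 24 of these pairs (14 higher, 10 lower), Lgals1 for 13, Anxa2 for 11, S100a11 for 10 and S100a10 for 6. S100a4, S100a6 and Anxa1 each had 1, all higher. Of the 40 groups, 22 had at least 1 gene higher, 19 at least 1 lower, 9 had both, and 8 had none. Without any 1 of the strain's own arrays, 30 of the 67 kept their call and 37 lost it, the single array left being assumed to vary like those of the other groups.

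**Figure D2:**
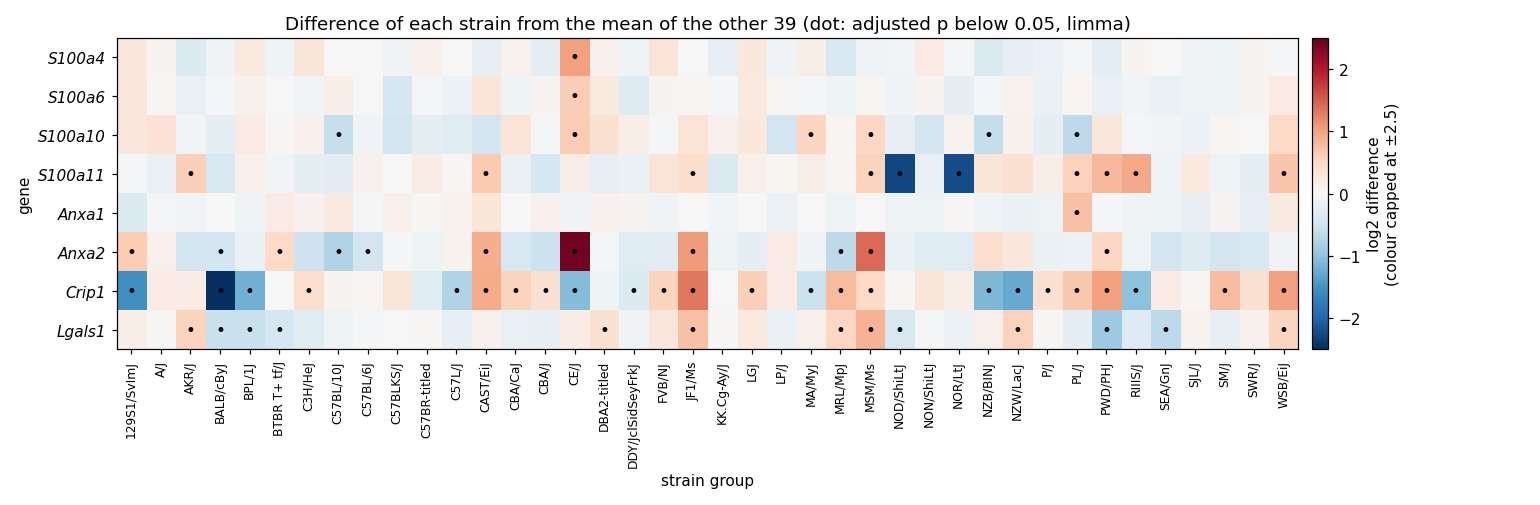
Log2 difference of each strain from the mean of the other 39 groups for the 8 genes (rows), with colour capped at 2.5 in either direction and a dot where the adjusted p was below 0.05 by limma. Dots are spread over strains with mixed signs, 24 of the 67 are in the Crip1 row, and the CE/J column is the one in which S100a4, S100a6, S100a10 and Anxa2 were all higher.

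CE/J had the highest strain value of 4 of the 6 S100 and annexin genes, S100a4, S100a6, S100a10 and Anxa2, while S100a11 ranked 14 and Anxa1 29 of 40. S100a4, which encodes a protein that binds myosin and is linked to cell motility, read 92.4 and 145.0 on the CE/J arrays, against a mean of 56.8 over the other strains. Both values exceeded every array of every other strain. The difference was 1.03 ± 0.14 (SE, n = 2 arrays, adjusted p = 2.47e-07). FVB/NJ (71.7) and C3H/HeJ (70.7) came next, and NZB/BINJ (45.4), MRL/MpJ (44.6) and AKR/J (45.8) were at the low end, none of them called.

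S100a6, which encodes calcyclin, a partner of several annexins, read 63.5 and 88.3 in CE/J, against a mean of 49.1 over the other strains. Only 1 of these arrays lay above all arrays of the other strains. The difference was 0.61 ± 0.14 (adjusted p = 0.00428), and without CE/J replicate 2 it was 0.37 (adjusted p = 1.0). CAST/EiJ (61.5) and 129S1/SvImJ (59.8) followed, and NOR/LtJ (42.1), DDY/JclSidSeyFrkJ (39.7) and C57BLKS/J (37.1) were lowest.

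Anxa2, whose product links membranes to actin and anchors the S100a10 complex, read 761.9 and 538.8 in CE/J, against a mean of 120.1 over the other strains. The difference was 2.41 ± 0.15 (adjusted p = 1.13e-17), and the lower CE/J array exceeded the highest array of any other strain, MSM/Ms replicate 2 with 381.2. MSM/Ms (324.6), JF1/Ms (255.9), CAST/EiJ (231.3), 129S1/SvImJ (193.3), PWD/PHJ (177.5) and BTBR T+ tf/J (175.1) were also higher than the other strains. C57BL/6J (91.8), BALB/cByJ (90.9), MRL/MpJ (80.5) and C57BL/10J (75.7) were lower, by between 0.46 and 0.75. The calls in CE/J, MSM/Ms, JF1/Ms, CAST/EiJ and C57BL/6J held without any 1 of their arrays, and the other 6 did not (adjusted p of between 0.0649 and 1.0 without the array in question). In BALB/cByJ the difference of -0.47 was -0.01 without replicate 2.

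S100a10, the partner of annexin A2, read 4975.4 and 5205.8 in CE/J, against a mean of 3294.1 over the other strains. The difference was 0.63 ± 0.18 (adjusted p = 0.0196), with an adjusted p of 0.0572 without replicate 1 and 0.639 without replicate 2. MA/MyJ (4808.9) and MSM/Ms (4744.4) were also higher, and C57BL/10J (2249.7), NZB/BINJ (2221.2) and PL/J (2146.0) lower. Each of these 6 calls was lost without 1 of the strain's arrays, with an adjusted p of between 0.0572 and 0.7 then, and single arrays of A/J (5847.9), MSM/Ms (5496.7) and 129S1/SvImJ (5314.8) exceeded both of CE/J. The A/J value is from replicate 2, the array with high B cell and erythroid markers, and the part of those markers in it was not tested. S100a10 and Anxa2 thus shared their highest strain.

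In CE/J, then, 4 of the 8 genes were called higher, where 1029 of the 24922 probe sets were, and 1 was called lower, where 2.65% were. The lower gene was Crip1, at 1672.3 and 1683.7, against a mean of 3579.4 over the other strains (-1.09 ± 0.10, adjusted p = 1.97e-12). S100a11, Anxa1 and Lgals1 passed no test there. The second CE/J array had the higher S100a4, S100a6 and S100a10 and the lower Anxa2. Among genes of the marker and family lists with a strain median below 113.1, several were also highest in CE/J. These were Il18rap, Myo1f, Itgae, Ncr1, Sdc1, Tnfrsf17, Cd14, Anxa10, Anxa13 and Lgals12. Tbx21 was the only one of these dim list genes that was lowest there. Whether dim probe sets in general read high in CE/J was not tested. The part of any such shift in the dim S100a4 and S100a6 values was not tested either.

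Other memory genes were called in CE/J about as rarely as probe sets in general, of which 1029 of 24922 were called higher. Of 23 measured memory and effector genes, 0 were called higher by limma (6 at an unadjusted p below 0.05) and 1 was called lower, Cd44, the hyaluronan receptor, at 168.4, which ranked 33 of 40 strains, against a strain median of 226.7. Of 12 cytoskeletal genes of memory cells, such as Ahnak, Vim and Lmna, 0 were called in either direction (3 at an unadjusted p below 0.05, all higher). The mean of the memory and effector list was 152.7 in CE/J and that of the cytoskeletal list 708.2, against strain medians of 147.2 and 653.5. Of 13 naive T cell genes, Dapl1 was called higher and Ccr9 and Actn1 lower.

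Markers of other cells were slightly above their usual level in CE/J, which ranked 3 of 40 for both the B cell and the plasma cell list. The 11 B cell markers averaged 51.2 and 60.9 on the CE/J arrays, against a median of 48.8 over all arrays, and the 5 plasma cell markers 99.4 and 125.3, against 95.8, with Sdc1 alone called higher. The 12 myeloid markers averaged 72.1 and 85.2, against 73.6, with Mpeg1 alone called higher, and the 11 neutrophil markers 55.5 and 59.2, against 53.2. For the B cell and neutrophil lists 0 genes were called by limma, with 1 and 2 at an unadjusted p below 0.05. Of 9 natural killer cell genes, Klrd1 and Ncr1 were called higher and Prf1 lower. The second CE/J array was the higher for each of these 4 lists. The part of these small differences in the 4 higher genes was not tested.

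S100a11 was set apart in a pair of related strains. It read 485.1 and 391.7 in NOD/ShiLtJ and 482.0 and 425.8 in NOR/LtJ, against means over the other strains of 2103.4 and 2101.3. All 4 arrays lay below the lowest array of every other strain, which was BALB/cByJ replicate 2 with 1335.1. The differences were -2.27 ± 0.14 (adjusted p = 3.29e-18) and -2.21 ± 0.14 (5.19e-18), and both held without either array of the strain. NON/ShiLtJ, a sister line of NOD/ShiLtJ, read 1878.1 and 1696.7 and was not called.

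The second S100a11 probe set gave the same pattern, with 390.5 in NOD/ShiLtJ and 405.3 in NOR/LtJ, against a strain median of 1968.0. Its strain means correlated with those of the first at r = 0.998. Whether the probe sets share probes was not tested, so this likeness is not a separate result. Whether sequence differences in these strains alter how either probe set binds was not tested either. The S100a11 protein is a partner of annexin A1 and takes part in membrane repair. At the upper end, S100a11 was called higher in 8 strains, led by RIIIS/J (3834.1), PWD/PHJ (3528.0) and WSB/EiJ (3223.2). The calls in RIIIS/J and PWD/PHJ held without any 1 array, and those in WSB/EiJ, CAST/EiJ, AKR/J, PL/J, MSM/Ms and JF1/Ms did not (0.0709 to 0.405).

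S100a10, the next gene to S100a11 on chromosome 3, read 2918.2 in NOD/ShiLtJ and ranked 29 of 40, and strain means of these 2 genes correlated at r = 0.06. In NOD/ShiLtJ, 2 of the 8 genes were called lower (S100a11 and Lgals1), where 1.05% of all probe sets were, and the Lgals1 difference of -0.41 (adjusted p = 0.0492) was lost without either array. All 8 genes were below their strain medians there. In NOR/LtJ, S100a11 alone was called lower, where 1.24% of all probe sets were. Of the 23 memory and effector genes, Cd44 was called higher in both, at 416.0 in NOD/ShiLtJ and 471.3 in NOR/LtJ, against a strain median of 226.7, and Icos was called lower in both. Il2rb was also higher, and Il18r1 and Rora lower, in NOD/ShiLtJ. Of the 12 cytoskeletal genes, Capg, an actin-capping protein, was called lower in both.

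Crip1 varied most among the 8 genes and did so reproducibly. It read 547.0 and 522.1 in BALB/cByJ, against a mean of 3685.9 over the other strains. The difference was -2.79 ± 0.10 (adjusted p = 7.08e-29), and both arrays lay below every other array. 129S1/SvImJ (1241.5) and NZW/LacJ (1500.0) came next, followed by BPL/1J (1563.8), NZB/BINJ (1649.3), CE/J (1678.0), RIIIS/J (1764.5) and C57L/J (2113.0). These 8 calls held without any 1 array, while those in MA/MyJ (2443.4) and DDY/JclSidSeyFrkJ (2785.8) did not (adjusted p of 0.0892 to 0.721).

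At the upper end, Crip1 read 9014.6 and 8201.9 in JF1/Ms, against a mean of 3432.5 over the other strains (1.32 ± 0.10, adjusted p = 4.03e-16). PWD/PHJ (7026.8), WSB/EiJ (6996.1), CAST/EiJ (6526.2), MRL/MpJ (6012.2), SM/J (5912.4), PL/J (5558.9), LGJ (5273.0) and FVB/NJ (5129.7) were also higher, and their calls held without any 1 array. The calls in CBA/CaJ, MSM/Ms, C3H/HeJ, P/J and CBA/J did not (0.0562 to 0.651). Crip2, the neighbouring gene on chromosome 12 and a paralog, correlated with Crip1 at r = 0.55 over the 40 strain means. It was dim and ranked 38 in BALB/cByJ (63.9, against a strain median of 77.8), but was not called there.

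In BALB/cByJ, 3 of the 8 genes were called lower (Crip1, Lgals1 and Anxa2), where 4.02% of all probe sets were. Of these, the Crip1 call alone held without any 1 array, and that of Lgals1 had an adjusted p of 0.0534 without replicate 1. Of the 12 cytoskeletal memory genes, Emp3, Plp2 and Tagln2 were called lower there and Ahnak higher.

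Lgals1, which encodes galectin-1, read 2176.1 and 3451.5 in MSM/Ms, against a mean of 1511.9 over the other strains. The difference was 0.86 ± 0.12 (adjusted p = 9.06e-08), and both arrays held the call alone. JF1/Ms (2505.2) and NZW/LacJ (2252.3) came next, and AKR/J (2245.0), WSB/EiJ (2214.7), MRL/MpJ (2182.1) and the DBA2-titled group (1985.1) were also called higher. At the low end, Lgals1 read 878.0 and 793.6 in PWD/PHJ, against a mean of 1558.7 over the other strains (-0.90 ± 0.12, adjusted p = 2.81e-08), and SEA/GnJ (989.4) and BALB/cByJ (1058.8) followed. Of the 13 Lgals1 calls, those in MSM/Ms, JF1/Ms and PWD/PHJ held without any 1 array, and the other 10 had an adjusted p of between 0.0534 and 0.896 without the array in question.

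Anxa1, whose product is known for limiting inflammation, was dim on every array. It read 20.9 and 48.9 in PL/J, against a mean of 19.2 over the other strains, and the second value was the highest of all 82 arrays. The difference was 0.74 ± 0.14 (adjusted p = 6.78e-05), and without PL/J replicate 2 it was 0.13 (adjusted p = 0.737). With the B cell marker mean as a covariate it was 0.29 (adjusted p = 0.311). PL/J replicate 2 is the array on which markers of other cells were highest: in PL/J all 11 B cell markers, 9 of 11 neutrophil markers and 8 of 12 myeloid markers were called higher. CAST/EiJ (23.8) and C57BL/10J (22.7) came next to PL/J, and SWR/J (17.0), SJL/J (16.9) and 129S1/SvImJ (15.3) were lowest, none of them called.

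In PL/J, 3 of the 8 genes were called higher (Anxa1, Crip1 and S100a11), where 8.85% of all probe sets were, and S100a10 was called lower, where 12.7% were. In MSM/Ms, 5 were called higher (Anxa2, Lgals1, S100a11, S100a10 and Crip1), where 5.77% of all probe sets were. The Anxa2 and Lgals1 calls there held without either array, while without replicate 2 the adjusted p was 0.207 for Crip1 and S100a11 and 0.585 for S100a10, and the second MSM/Ms array was the higher for all 8 genes. In JF1/Ms, 4 were called higher (Crip1, Anxa2, Lgals1 and S100a11), where 6.94% were, and all 8 lay above their strain medians. Of memory and effector genes, Cd44, Il18r1 and Cd69 were called higher and Il2rb and Icos lower in both MSM/Ms and JF1/Ms.

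The 4 strains JF1/Ms, MSM/Ms, PWD/PHJ and CAST/EiJ were then compared with the other 36, with the strain as the replicate. Relatedness between strains was not taken into account. Anxa2 read 255.9, 324.6, 177.5 and 231.3 in these strains, and had a median of 111.8 over the 36, which ranged between 75.7 and 640.7. The difference was 1.05 ± 0.26 (SE, n = 4 and 36 strains, adjusted p = 0.00445). All 4 values lay above 34 of the 36. Anxa2 was the 1 gene of 8 called, where 4.96% of all probe sets were called higher and 3.77% lower, and without MSM/Ms its adjusted p was 0.0547.

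Crip1 (means 6638.7 and 3272.3, difference 1.02 ± 0.38, adjusted p = 0.0869) and S100a11 (means 3070.9 and 1930.5, 0.67 ± 0.29, adjusted p = 0.173) were above the median of the 36 in all 4 strains but did not pass. Lgals1 was highest in MSM/Ms and JF1/Ms and lowest of all strains in PWD/PHJ, and the 4 values overlapped the others (0.21 ± 0.18, adjusted p = 0.613). Without PWD/PHJ the Lgals1 difference was 0.57 (adjusted p = 0.04). S100a4, S100a6, S100a10 and Anxa1 differed by between -0.14 and 0.19, with adjusted p of at least 0.602.

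Across the 40 strain means, few pairs of genes passed a test of correlation after adjustment. Of 28 pairs, 2 correlated at an adjusted p below 0.05 (permutation test, 100000 resamples, Benjamini-Hochberg over the 28), and 6 did at an unadjusted p below 0.05. The r values ranged between -0.26 and 0.57 with a median of 0.17, and 19 of the 28 were positive. Strain means share arrays between the genes and ancestry between the strains. The first principal component of the 8 standardised genes held 31.3% of their variance and the second 19.3%.

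S100a4 and S100a6 correlated at r = 0.57 (permutation p = 0.0005, adjusted p = 0.014) and at Spearman's rho = 0.41 (p = 0.00933, adjusted p = 0.116), and r was 0.33 without CE/J and MRL/MpJ, the strains farthest from the median. S100a6 and Anxa2 correlated at r = 0.52 (permutation p = 0.0015, adjusted p = 0.021) and rho = 0.31 (p = 0.0503, adjusted p = 0.176), and r was 0.31 without C57BLKS/J and CE/J. Without CE/J alone, r was 0.34 and 0.28 for these pairs, and 0 of the 28 were called (2 at an unadjusted p below 0.05). Both calls were thus lost without CE/J. Over 40 omissions of 1 strain each, S100a4 with S100a6 was called in 39 and S100a6 with Anxa2 in 38. The second call was therefore also lost without a strain other than CE/J.

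S100a4 and Anxa2 correlated at r = 0.38 (permutation p = 0.0267, adjusted p = 0.15, rho = 0.02), and r was -0.10 without CE/J. S100a10 and Anxa2, whose proteins form a complex, correlated at r = 0.35 (permutation p = 0.026, adjusted p = 0.15, rho = 0.27), and r was 0.21 without CE/J. S100a11 and Anxa1 correlated at r = 0.13, and Crip1 and Lgals1 at r = 0.20. None of these pairs passed the test.

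**Figure D3:**
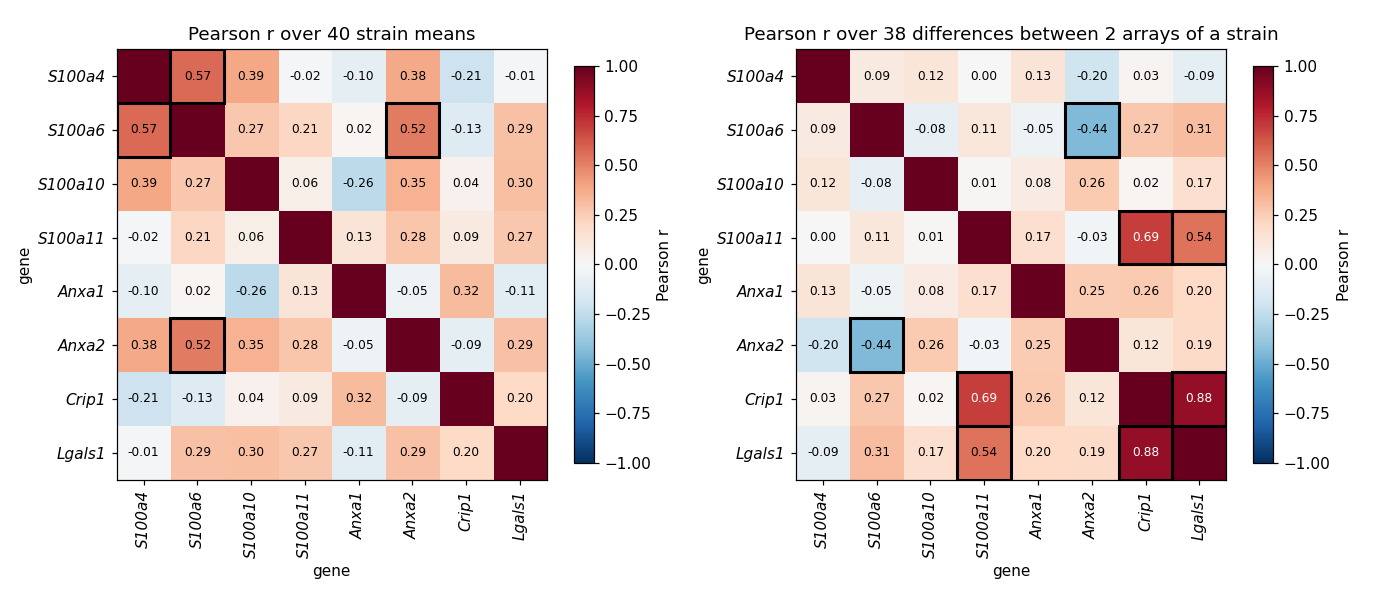
Pearson r for the 28 pairs of genes over 40 strain means (left) and over 38 differences between the 2 arrays of a strain (right), with a frame where the adjusted permutation p was below 0.05. The framed pairs differ between the panels: S100a4 with S100a6 and S100a6 with Anxa2 on the left, and Crip1, Lgals1 and S100a11 with each other plus a negative S100a6 with Anxa2 on the right.

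Between the 2 arrays of the same strain, where the genotype is shared, another set of genes moved together. Over 38 strains, Crip1 and Lgals1 differences correlated at r = 0.88 (permutation p = 1e-05, the smallest possible, adjusted p = 0.00014) and at rho = 0.85, and r was 0.81 without C57L/J and MSM/Ms. The 2 genes moved in the same direction in 32 of 38 strains. S100a11 and Crip1 correlated at r = 0.69 (p = 1e-05, adjusted p = 0.00014, rho = 0.62), and S100a11 and Lgals1 at r = 0.54 (p = 0.00057, adjusted p = 0.00532, rho = 0.52). Without C57L/J and LP/J, r was 0.62 and 0.46 for these pairs. Many other genes were closer: 9 had a higher r with S100a11 than Crip1 did, and 88 a higher r with Crip1 than S100a11 did. For S100a11 and Lgals1 these numbers were 77 and 696, and for Crip1 and Lgals1 0 and 1. The genes counted exceeded the median of all values in at least 1 strain.

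S100a6 and Anxa2 moved in opposite directions between arrays (r = -0.44, permutation p = 0.00584, adjusted p = 0.0409), with rho = -0.35 (adjusted p = 0.152) and r = -0.32 without A/J and CBA/CaJ. S100a4 and S100a6, which correlated across strains, did not between arrays (r = 0.09, adjusted p = 0.79). The 4 called pairs were 4 of 28, and the share among pairs of other genes was not tested. Whether a pair's r differed between the 2 levels was not tested either. C57L/J shows the joint movement of 3 genes: its arrays read 2551.7 and 1749.7 for Crip1, 1662.6 and 1080.1 for Lgals1, and 2561.0 and 1632.6 for S100a11. MSM/Ms shows it in the other direction, with 4242.0 and 5720.0 for Crip1, 2176.1 and 3451.5 for Lgals1, and 2688.4 and 3190.6 for S100a11.

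**Figure D4:**
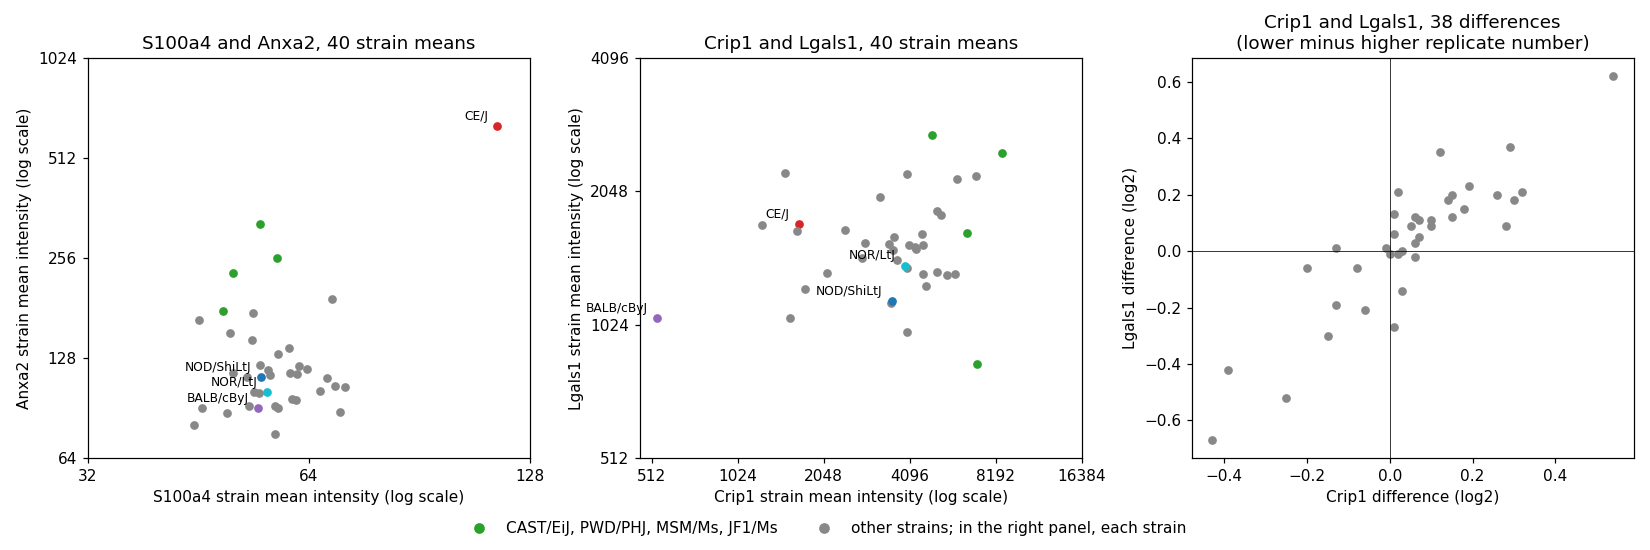
Strain mean intensities of S100a4 and Anxa2 (left) and of Crip1 and Lgals1 (middle) on log axes, 1 point per strain, and differences between the 2 arrays of a strain for Crip1 and Lgals1 (right, log2, lower minus higher replicate number). CE/J stands alone at the upper right on the left, where r was 0.38, and the middle points scatter (r = 0.20), while the points on the right follow a line (r = 0.88).

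The same differences were set against the means of marker lists, in 120 relations of a gene with a list or with the array median. Crip1 and Lgals1 followed the 12 cytoskeletal memory genes between arrays, at r = 0.77 (rho = 0.78) and r = 0.81 (rho = 0.75), and without the 2 farthest strains at r = 0.68 and 0.70 (each permutation p = 1e-05, adjusted p = 0.0004). Single genes outside the memory lists were closer still, such as the respiratory chain genes Ndufb11 (r = 0.86) for Crip1 and Cox8a (0.86 for Crip1 and 0.87 for Lgals1), and Yif1b (0.89) for Lgals1, a ranking added after seeing the data. S100a11 followed the cytoskeletal list more weakly (r = 0.47, permutation p = 0.00281, adjusted p = 0.0396, rho = 0.46). S100a6 followed the array median (r = 0.66, permutation p = 2e-05, adjusted p = 0.00048, rho = 0.62), and also the dim platelet list (r = 0.71) and innate-like T cell list (r = 0.64). The part of the array median in the S100a6 values was not tested.

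Across strain means, 1 of the 120 relations passed by Pearson's r, that of S100a10 with the cytoskeletal memory genes (r = 0.58, permutation p = 0.00012, adjusted p = 0.0144, rho = 0.65, r = 0.64 without the 2 farthest strains). Psmb4 and Tma7, outside the memory lists, were closer to S100a10 (r = 0.79 each), as the closest of 10928 genes. Between arrays, S100a10 had r = 0.34 with the cytoskeletal list (adjusted permutation p = 0.19) and rho = 0.46 (adjusted permutation p = 0.046). S100a6 and Anxa2 correlated with the memory and effector list at r = 0.49 (adjusted p = 0.0798, rho = 0.52) and r = 0.46 (adjusted p = 0.107, rho = 0.54), and passed by rho alone (adjusted permutation p = 0.0168 and 0.0164), as did S100a11 with the natural killer cell list (rho = 0.54). Crip1, the gene with the widest range, had r = -0.09 with the memory and effector list and r = 0.11 with the cytoskeletal list, and neither passed.

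Other genes of the same families were counted by the same F-test, which 47.6% of all probe sets passed. Of 12 other S100 genes, 1 passed the F-test, S100a13, at between 271.3 and 464.2. S100a8 and S100a9, neutrophil genes, were highest in PL/J (55.5 and 226.6). Of 10 other annexins, 6 passed, among them Anxa3, at 308.9 in MSM/Ms, against a strain median of 49.9, and Anxa5, at 1073.7 in CE/J, against 1712.0. Anxa5 was called lower in CE/J, the strain where Anxa2 was highest, and in MSM/Ms and JF1/Ms. Of 5 relatives of Crip1, 2 passed (Crip2 and Csrp1), and of 7 other galectins 3 passed (Lgals4, Lgals8 and Lgals9). Whether these shares differ from that of the 8 genes was not tested.

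Memory and naive marker genes were set beside the 47.6% of all probe sets, and the 72.6% of the 14512 brighter ones (those exceeding 113.1 in at least 1 strain), that passed the F-test. Of 23 memory and effector genes, 17 passed. Of the 23, 16 were among the brighter probe sets, so the 72.6% is not a like share for the whole list. Cd44 had the widest range, between 128.0 in BTBR T+ tf/J and 778.8 in PWD/PHJ. Il18r1, Il2rb and Icos followed, with ranges of 5.6-fold, 4.75-fold and 3.88-fold. Of 12 cytoskeletal memory genes 9 passed, led by Capg, at between 68.5 in KK.Cg-Ay/J and 471.4 in the DBA2-titled group. All 13 naive genes passed, Dapl1 with 67.9 in PWD/PHJ and 9732.6 in WSB/EiJ. All 12 regulatory T cell genes passed too, with Nrp1, Gpr83 and Izumo1r spanning 18.9-fold, 14.9-fold and 11.6-fold.

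The 2 nearest measured genes on each side were read in the strain where each of the 8 genes deviated most. S100a5, which lies between S100a4 and S100a6 on chromosome 3, read 85.5 in CE/J, the second highest strain value, and correlated with S100a4 at r = 0.42, but did not pass the F-test (adjusted p = 0.682). The other neighbours of S100a4, S100a2 and S100a3, correlated with it at r = -0.02 and 0.00. Ice2 and Foxb1, which flank Anxa2 on chromosome 9, read 255.8 and 58.0 in CE/J, against strain medians of 301.6 and 61.8. Tchhl1 on the other side of S100a11 read 141.8 in NOD/ShiLtJ, against 128.5. For Lgals1 on chromosome 15, Nol12 and Pdxp correlated at r = 0.41 and 0.38, and Pdxp read 255.5 in PWD/PHJ, where Lgals1 was lowest, against 201.6.

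For each gene, the 5 genes with the most similar strain means were found by Pearson's r among about 10928 genes. This choice favours genes that share its extreme strains. Their values in those strains, here and in the next paragraph, follow in part from the choice and are no separate result. S100a10 was closest to Psmb4 and Tma7 (r = 0.79 each), Phf5a (0.78), Wdyhv1 and Emc6 (0.77 each). Anxa2 was closest to Lzts2 (0.76), Mex3b (0.71), Laptm4b and Batf (0.67 each) and Arl3 (0.66), and Batf, a transcription factor of activated T cells, read 333.2 in CE/J, second highest, against a strain median of 251.6. S100a11 was closest to Fmo5 (0.72), Prkca (0.71), Suclg2 and Gpr183 (0.69 each) and Ctsk (0.59). Fmo5, Prkca and Gpr183 had their 2 lowest strain values in NOD/ShiLtJ and NOR/LtJ, and Gpr183, an oxysterol receptor, read 802.2 and 646.6 there, against a strain median of 1594.9.

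S100a6 was closest to Zbtb32 (0.64), Myo1f (0.59), S100a4 (0.57), Bex1 (0.56) and Tigit (0.52), and S100a4 to Hmgb2 (0.56), Unc5d (0.55), Tigit (0.52), Sesn1 (0.51) and Lrrc40 (0.50). Zbtb32 was highest in CE/J (161.8, against a strain median of 125.7) and Tigit, an inhibitory receptor, ranked 3 there (259.2, against 191.3). Anxa1 was closest to Ngp (0.69), Ly6d (0.67), Trf (0.66), Igha (0.63) and Snx8 (0.63), and Ngp, a neutrophil gene, and Igha, an antibody heavy chain, were highest in PL/J at 143.2 and 248.6, against strain medians of 28.6 and 63.0. Crip1 had no close match, with Cyth1 and Slc12a2 (0.56 each), Crip2 (0.55), Adam6b (0.52) and Pafah1b3 (0.50), and Lgals1 was closest to S100a13 (0.62), Vat1 (0.58), Rap1gap2, Dhrs13 and Psma8 (0.55 each).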

How the data were processed

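RNA from sorted spleen CD4 T cells was hybridised to Affymetrix ST1.0 arrays with biotin labelling, per the labels' protocols. RMA and Affymetrix Power Tools were used per the submitters' processing notes, whose versions are not given in the sources used here. Deposited were linear intensity values that the authors had already normalized, 1 for each of 24922 probe sets on each of 82 arrays, and array number rather than read depth limits precision. They were taken to log2 here with no filter and no further normalization. Probe sets were named from the platform's annotation, and whether sequence differences between strains alter how probes bind was not tested.

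Strains were compared with limma 3.58.1 in R 4.3.3 on all probe sets (F-test, and each strain against the mean of the others, 42 residual degrees of freedom, Benjamini-Hochberg adjustment, threshold 0.05), and the 4 non-domesticus strains with the other 36 on strain means. The limma steps were tested on simulated data. Correlations used permutation tests with 100000 resamples in Python 3.11.15. Pools of 1 strain are the replicates of the F-test and the single-strain comparisons, whose p-values measure the spread between pools. The comparison of 4 with 36 strains measures the spread between strain means. The correlation p-values come from shuffled strain means or shuffled array differences. The members and lists were chosen with earlier results of these data known. Named beside the members were, by rule, the 3 highest and lowest strains of each, the 5 genes with the most similar strain means, the 2 nearest genes on each side, and up to 4 genes of each list with the widest range. Tests of list genes within single strains, and the strains and genes described at length for that reason, were added after values were seen. Alternatives tried were quantile normalization, centring on array medians, an offset of 32, array weights, a B cell covariate, other priors, a filter of the dimmest 40 percent of probe sets, the replicate number as a block, and leaving out arrays or strains.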

Additional observations from a re-analysis of the deposited data

Results flagged for a closer look

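Among JF1/Ms, MSM/Ms, PWD/PHJ and CAST/EiJ, the Anxa1 mean of CAST/EiJ (23.8) stood apart by Dixon's test from the other 3, which read 19.5, 19.3 and 19.1. Of 16 groups of 4 strains or 5 C57BL/6J arrays that were tested, this was the 1 that stood out, and chance gives about 1 in 20.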

How the results depend on the processing

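The count of genes that differed between strains was 6. It lay between 6 and 8 without any 1 array and under the alternatives other than the filter of the dimmest 40 percent of probe sets, which removed S100a4, S100a6 and Anxa1 from the test and left 5. S100a6 passed under quantile normalization (adjusted p = 0.00981), centring on array medians (0.0124), array weights (0.00615), the replicate block (0.0456) and without C57BL/6J replicate 5 (0.0495), PL/J replicate 1 (0.0417) or PL/J replicate 2 (0.0494), and Anxa1 passed with array weights (0.0428) and without PL/J replicate 1 (8.81e-05). The count of called pairs was 67 and ranged between 62 (centring) and 78 (array weights), and between 63 and 73 without any 1 array. With the replicate number as a block these counts were 7 and 64. The numbers did not pair arrays: over 630 pairs of 36 strains, deviations of replicate 1 from replicate 2 correlated between -0.63 and 0.57, with a median of 0.00, and no call of the report rests on the block.

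Of the 4 non-domesticus strains, leaving out 1 gave between 0 and 2 called genes, 0 without MSM/Ms (3 at an unadjusted p below 0.05) and 2 without PWD/PHJ. Called correlations across strains numbered 2, and 0 with Spearman's rho (7 at an unadjusted p below 0.05), 0 without CE/J (2), 0 of 10 among the 5 genes above the median intensity (1), and between 0 and 3 without any 1 strain. The settings without CE/J and with the 5 brighter genes were chosen after seeing the data. No called result changed sign. Of the alternatives for single genes, 496 kept their direction and their side of the threshold, whether called or not, 45 lost a call and 7 gained one.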

Other observations

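Between the 2 arrays of a strain, the genes whose differences were most like those of Crip1 were Lgals1 (r = 0.88), Ndufb11 and Cox8a (0.86 each), Znrd2 (0.85) and Emp3 (0.83), and those most like Lgals1 were Yif1b (0.89), Crip1 (0.88), Cox8a (0.87), Dpm3 and Myl6 (0.86 each). Cox8a and Ndufb11 encode subunits of the mitochondrial respiratory chain, and Emp3 and Myl6 a membrane protein and a myosin light chain. S100a10 differences were most like those of Phf5a (0.93), Rps20 (0.92) and Ndufb6 (0.90). This ranking was added after seeing the data and is given as a description over 38 strains.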
